A study of Homo sapiens with 10 samples.

Results

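The 40 genes described here encode antiviral effectors that interferon induces. They were chosen by gene symbol, as the rows of the count table whose Ensembl identifiers map to 40 listed symbols, out of 57736 gene identifiers in all. All 40 were found, and 39 passed the filter on low counts and were tested. RTP4 did not pass and is given by its counts.

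IMR90, a cell line of human lung fibroblasts, was sequenced for RNA in 5 groups with 2 samples each. The mutant knock-in group was senescent, had METTL3 knocked down and received a mutant METTL3. The wild type knock-in group was the same but received wild type METTL3. The METTL3 knockout group was senescent with METTL3 knocked down and nothing put back. The senescent control group was senescent with a control siRNA, and the control group was not senescent and had the control siRNA. Senescence came from a retrovirus expressing RAS, and control cells had an empty retrovirus, per the labels' protocols. siRNA was given from day 4 and cells were harvested 48 hours after the second virus, a lentivirus that carried the returned gene. The titles say knockout and knock-in for what the protocol describes as siRNA and a lentiviral transgene. The protocol text names METTL14 and a METTL14 mutant, while titles and column names say METTL3, and the METTL3 mutation is not stated in the labels used here. The knockout's column names contain vec, which the senescent control's lack, so a lentivirus may separate these groups as well. The labels do not say whether replicates were separate cultures. The p-values therefore measure sample-to-sample spread that could be technical only.

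Interferons are secreted proteins that warn cells of infection. Type I interferon binds the IFNAR1 and IFNAR2 receptor, and the kinases JAK1 and TYK2 then activate a transcription factor complex that holds STAT2 and IRF9 and binds interferon-stimulated response elements (ISREs) in the promoters of its target genes. The proteins made from these targets block viral entry, RNA, translation, assembly and release, and many of the same genes are also known to be expressed in damaged or senescent fibroblasts without infection.

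The 10 libraries held 16293975 to 23570266 counts. METTL3, the gene that was knocked down and returned, had 114107 and 147774 CPM in the mutant knock-in and 58385 and 58125 CPM in the wild type knock-in, where CPM is counts scaled to a common library total by TMM. It had 23.2 and 28.9 CPM in the METTL3 knockout, 47.3 and 57.3 CPM in the senescent control and 72.7 and 81.4 CPM in the control. METTL3 was therefore lowered and not absent in the knockout. The transgene was 2.25 times as abundant in the mutant as in the wild type knock-in. The kind of METTL3 and its amount cannot be told apart in comparisons between the knock-ins. HRAS stood at 29.8 and 23.7 CPM in the mutant knock-in and 48.7 and 43.4 CPM in the wild type knock-in. It was lower in the mutant by edgeR's quasi-likelihood test, with a log2 fold change of -0.78 (SE 0.11, adjusted p = 0.00229). It had 40.8 and 39.5 CPM in the METTL3 knockout, 61.0 and 61.3 CPM in the senescent control and 14.8 and 14.6 CPM in the control. The mutant samples thus also lay below the METTL3 knockout, and the knockout below the senescent control. The part of HRAS in the results was not tested. All 8 fibroblast markers listed were detected in every sample, with sums of 13183 and 12313 CPM in the mutant knock-in and 15740 and 16483 CPM in the wild type knock-in, and 3 of them (COL1A2, COL3A1 and VIM) were lower in the mutant. Summed leukocyte markers stood at 6.56 and 9.56 CPM in the mutant knock-in and 5.55 and 3.497 CPM in the wild type knock-in, and 3 and 5 of the 9 listed had a count in the mutant samples, against 4 of the 9 in each wild type sample. CD3E, a T cell marker, and LILRA4, a marker of plasmacytoid dendritic cells, were at 0 in all 10 samples. CLEC4C, which also marks plasmacytoid dendritic cells, had 2 counts in mutant sample 2 and 0 in the other samples. The monocyte and myeloid markers CD14 and ITGAM had 0 and 4 counts (CD14) and 3 and 4 counts (ITGAM) in the mutant samples and 0 and 1 counts (CD14) and 4 and 8 counts (ITGAM) in the wild type samples.

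The antiviral effector genes were most abundant in the mutant knock-in. Against the wild type knock-in, 33 of the 39 tested members were higher, 0 were lower and 6 did not pass the test (edgeR quasi-likelihood test, Benjamini-Hochberg adjusted p under 0.05). Over all 16760 genes tested in the same way, 5.16% were called higher and 7.39% lower. DESeq2 called 30 members higher and 0 lower, beside 4.05% higher of the 12755 genes to which it gave an adjusted p. At an unadjusted p under 0.05 in edgeR the members were 37 higher and 0 lower. The share of all genes at that looser threshold was not counted. The median log2 fold change was 1.25 over the members and -0.00 over all genes. With upper-quartile scaling in place of TMM, the split over all genes turned round, at 1056 higher and 773 lower, against 865 higher and 1238 lower with TMM, while all 33 called members were called higher under both. The rise was at least 2-fold for 25 of the 33. The members' share of all counts other than METTL3 was 0.367% and 0.346% in the mutant knock-in, 0.178% and 0.151% in the wild type knock-in, 0.0892% and 0.106% in the METTL3 knockout, 0.0581% and 0.0610% in the senescent control, and 0.0538% and 0.0591% in the control. These are bulk samples, in which more cells expressing a gene and more of its RNA per cell cannot be told apart. PTPRC, a marker of all leukocytes, was also higher in the mutant, at 2.92 and 5.89 CPM against 1.46 and 0.933 CPM in the wild type knock-in, with a log2 fold change of 1.89 (SE 0.40, adjusted p = 0.0138). LYZ, the only other leukocyte marker tested, was not called, with a log2 fold change of 0.16. It stood at 3.46 and 3.04 CPM in the mutant and 3.78 and 2.14 CPM in the wild type knock-in. The part of PTPRC and LYZ in the result was not tested. The count of 33 rested in part on single libraries. It fell most without wild type sample 2, and also fell without wild type sample 1 or either mutant sample. In each of these fits fewer of all genes were called higher too, so the fall was not particular to the members. The count of 33 rose with control sample 1 or 2 left out, although this comparison does not include the control. The number called higher over all genes rose in those fits as well. The median log2 fold change over the members was 1.17 without wild type sample 2. It was 1.25 without control sample 1 and 1.25 without control sample 2.

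**Figure D1:**
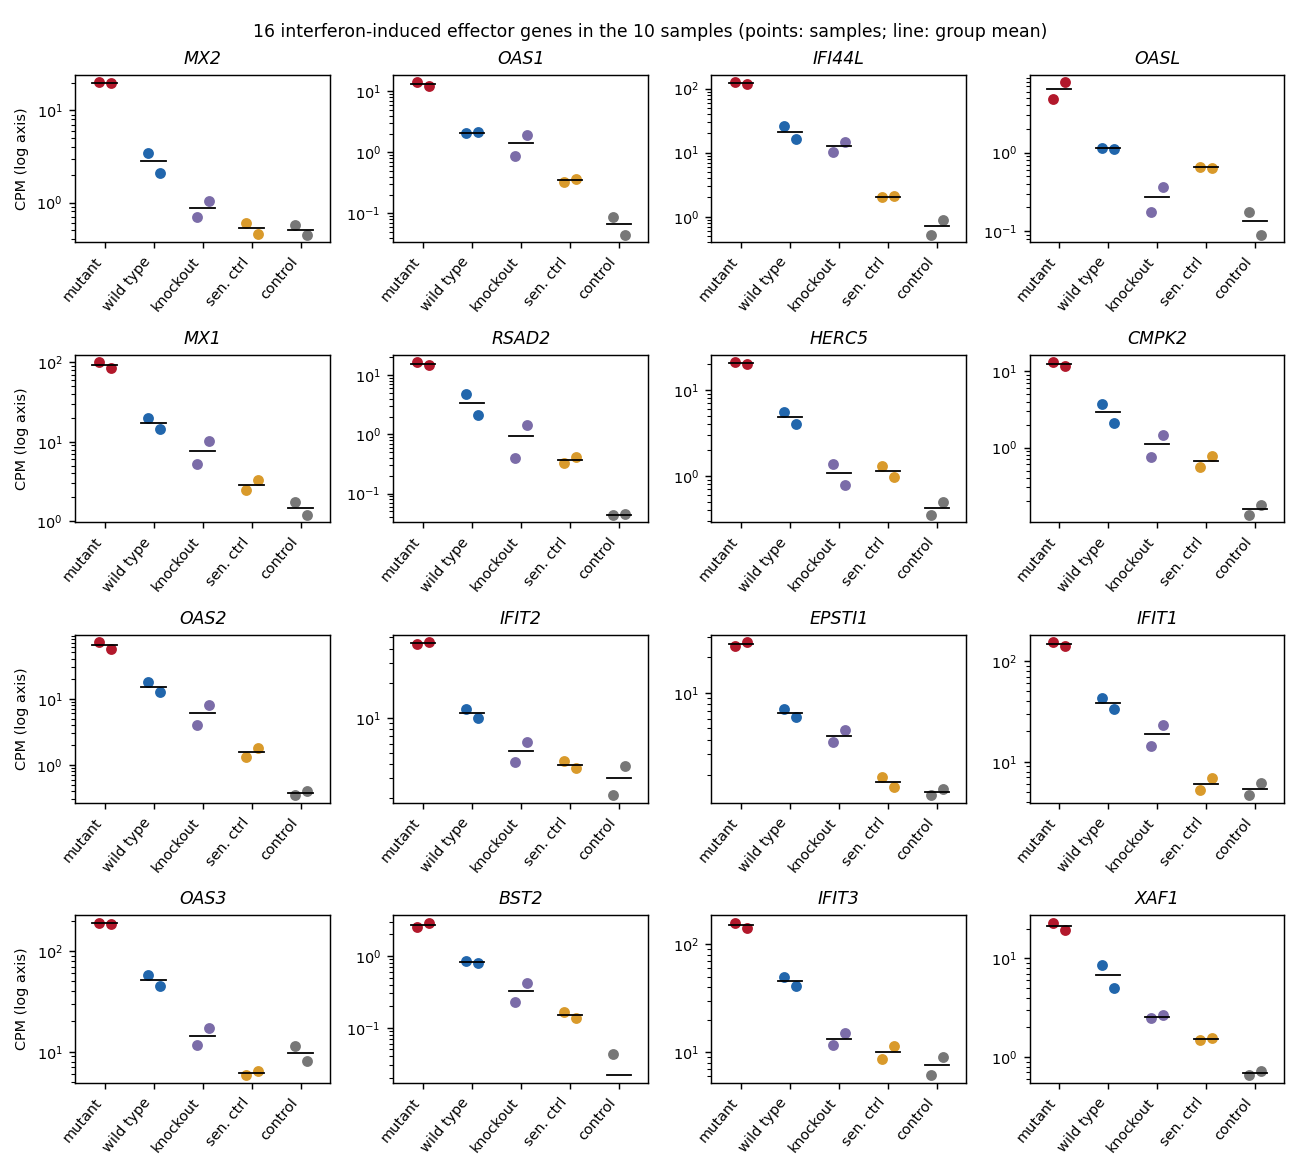
Level of the 16 called members with the largest fold change between mutant and wild type knock-in, 1 panel per gene, in CPM on a log axis against the 5 groups, with a point per sample and a line at the group mean. Both mutant samples lie above both wild type samples in each panel, and the control sample of BST2 with a count of 0 cannot be drawn on this axis.

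For 39 of the 40 members both mutant samples lay above both wild type samples, and only LGALS3BP overlapped. For 37 of the 40 both mutant samples lay above every other sample in the series. In 39 of the 40 the mutant knock-in had the highest group mean, and the exception was GBP1, whose highest mean was in the METTL3 knockout. The means of 32 members ran in 1 order, with the mutant above the wild type knock-in, the wild type above the METTL3 knockout and the knockout above both remaining groups. The lowest mean was in the control for 25 members and in the senescent control for 15. The matching shares over all genes were not counted, and groups of 2 samples often lie apart by chance. The counts in this paragraph are therefore descriptions without a background.

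**Figure D2:**
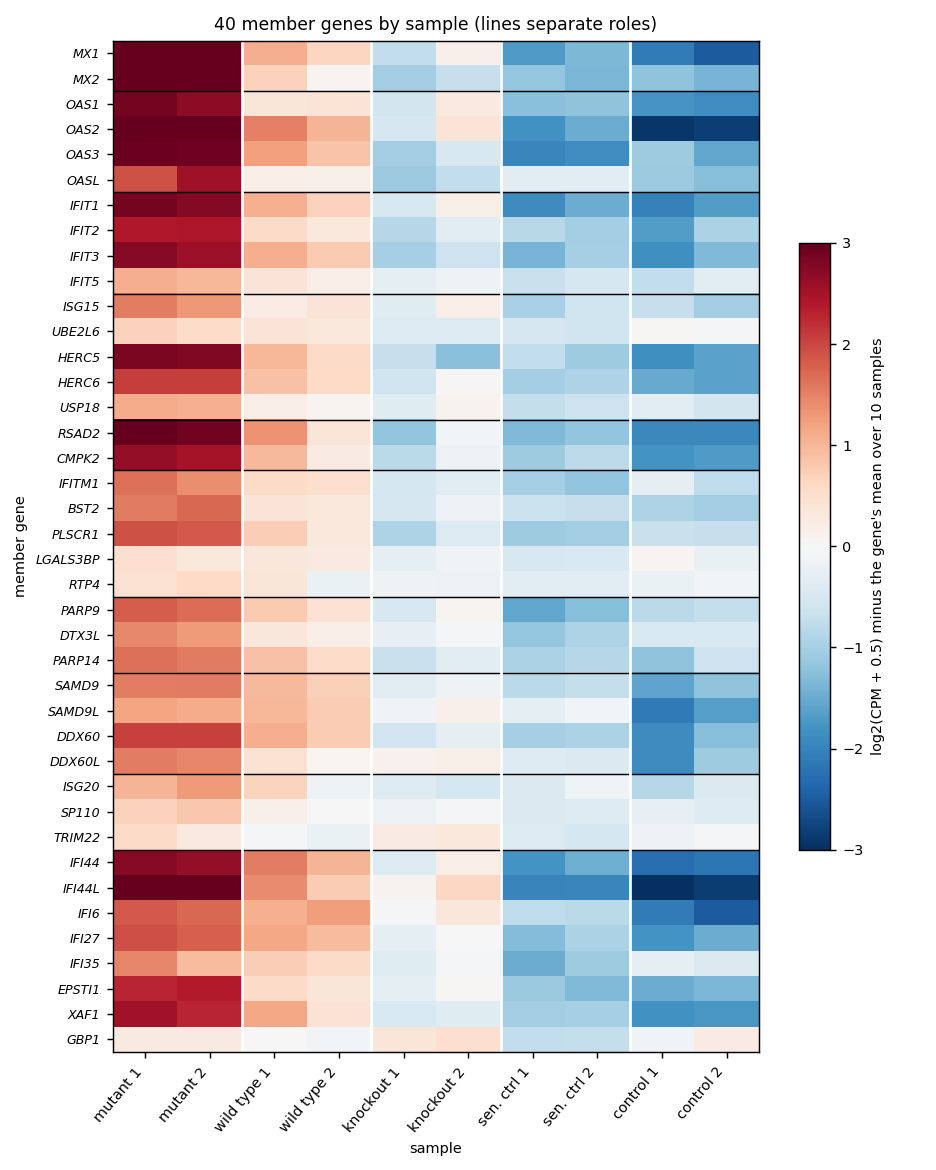
Level of all 40 members in the 10 samples, as log2 of CPM plus 0.5 minus each gene's mean over samples, with genes in rows by role and samples in columns by group; values beyond the ends of the colour scale take its end colours. The mutant knock-in columns hold the highest values for 37 of the 40 genes.

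The MX proteins are dynamin-like GTPases, of which MX1 traps the nucleoprotein of influenza and related viruses and MX2 blocks retroviral capsids at the nucleus. MX1 had 100.02 and 83.7 CPM in the mutant knock-in, 20.2 and 14.6 CPM in the wild type knock-in, 5.25 and 10.3 CPM in the METTL3 knockout, 2.47 and 3.29 CPM in the senescent control and 1.75 and 1.21 CPM in the control. MX2 had 20.2 and 19.8 CPM in the mutant knock-in, 3.48 and 2.098 CPM in the wild type knock-in, 0.693 and 1.04 CPM in the METTL3 knockout, 0.603 and 0.457 CPM in the senescent control and 0.569 and 0.448 CPM in the control. Both were higher in the mutant than in the wild type knock-in, and in neither gene did the 2 groups overlap. MX2 had the largest change of all members, with a log2 fold change of 2.87 (SE 0.21, adjusted p = 6.54e-05), which is 7.31 times. MX1 changed by 2.41 (SE 0.24, adjusted p = 0.000906).

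The OAS enzymes sense double-stranded RNA and make a second messenger that leads to the breakdown of RNA in the infected cell. All 4 OAS genes were higher in the mutant knock-in. OAS1 had 14.1 and 12.3 CPM in the mutant knock-in, 2.07 and 2.14 CPM in the wild type knock-in, 0.866 and 1.93 CPM in the METTL3 knockout, 0.329 and 0.365 CPM in the senescent control and 0.0875 and 0.0448 CPM in the control. The log2 fold change of OAS1 between mutant and wild type knock-in was 2.64 (SE 0.25, adjusted p = 0.000217). OAS2 had 70.9 and 57.2 CPM in the mutant knock-in, 17.9 and 12.6 CPM in the wild type knock-in, 4.04 and 7.93 CPM in the METTL3 knockout, 1.32 and 1.78 CPM in the senescent control and 0.3502 and 0.403 CPM in the control. It was higher by 2.08 (SE 0.23, adjusted p = 0.00133) on the log2 scale, without overlap. OAS3, the member of the family that binds long RNA, had 192 and 187 CPM in the mutant knock-in, 58.1 and 44.8 CPM in the wild type knock-in, 11.6 and 17.4 CPM in the METTL3 knockout, 5.87 and 6.39 CPM in the senescent control and 11.4 and 8.02 CPM in the control. Its log2 fold change was 1.88 (SE 0.18, adjusted p = 0.00077). The fourth gene, OASL, lacks the enzyme activity and binds RIG-I. OASL had 4.89 and 7.92 CPM in the mutant knock-in, 1.16 and 1.12 CPM in the wild type knock-in, 0.173 and 0.365 CPM in the METTL3 knockout, 0.658 and 0.639 CPM in the senescent control and 0.175 and 0.0896 CPM in the control, so that the mutant samples alone exceeded 2 CPM. Its log2 fold change was 2.48 (SE 0.31, adjusted p = 0.00119), and DESeq2 gave no adjusted p for it. In GENCODE release 29 the 3 neighbouring genes OAS1, OAS3 and OAS2 overlap an antisense transcript, AC004551.1, and whether the counting used strand is not stated in the labels used here.

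IFIT proteins bind viral RNA by its end. IFIT1 recognises caps that lack a methyl group, IFIT2 and IFIT3 form complexes with it, and IFIT5 binds uncapped RNA. All 4 genes were higher in the mutant knock-in. IFIT1 had 153 and 142 CPM in the mutant knock-in, 43.3 and 33.4 CPM in the wild type knock-in, 14.5 and 23.2 CPM in the METTL3 knockout, 5.21 and 6.94 CPM in the senescent control and 4.68 and 6.09 CPM in the control. Its log2 fold change was 1.95 (SE 0.20, adjusted p = 0.000908). IFIT2 had 44.02 and 45.2 CPM in the mutant knock-in, 12.02 and 9.98 CPM in the wild type knock-in, 4.16 and 6.21 CPM in the METTL3 knockout, 4.22 and 3.65 CPM in the senescent control and 2.14 and 3.85 CPM in the control. The change of IFIT2 was 2.03 (SE 0.20, adjusted p = 0.00037) on the log2 scale. IFIT3 had 158 and 140.4 CPM in the mutant knock-in, 49.97 and 40.99 CPM in the wild type knock-in, 11.5 and 15.1 CPM in the METTL3 knockout, 8.55 and 11.5 CPM in the senescent control and 6.13 and 9.09 CPM in the control. It was higher by 1.72 (SE 0.18, adjusted p = 0.000908). For these 3 genes the mutant samples lay far above every other sample, and the mutant and wild type samples did not overlap. IFIT5 changed less, at 124 and 117 CPM in the mutant against 76.8 and 66.7 CPM in the wild type knock-in, a log2 fold change of 0.75 (SE 0.13, adjusted p = 0.00584). Its call was lost without wild type sample 2 (adjusted p = 0.101) and without mutant sample 2 (adjusted p = 0.0796). IFIT1, IFIT2 and IFIT3 overlap LIPA on the other strand in the annotation, and the IFIT genes resemble each other, so their counts carry that uncertainty.

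ISG15 is a ubiquitin-like protein that is joined to other proteins through the conjugating enzyme UBE2L6 and the ligase HERC5, and removed by USP18, which also dampens the interferon receptor. HERC6 is a close relative of HERC5 that acts as the ISG15 ligase in mouse. Of these 5 genes, 4 were higher in the mutant knock-in and UBE2L6 did not pass the test. HERC5 had 21.1 and 20.3 CPM in the mutant knock-in, 5.55 and 4.01 CPM in the wild type knock-in, 1.39 and 0.782 CPM in the METTL3 knockout, 1.32 and 0.959 CPM in the senescent control and 0.3502 and 0.493 CPM in the control. The change of HERC5, 2.12 (SE 0.20, adjusted p = 0.000217) on the log2 scale, was the largest of the 5. HERC6 stood at 51.2 and 51.4 CPM in the mutant and 22.1 and 17.9 CPM in the wild type knock-in, with a log2 fold change of 1.36 (SE 0.16, adjusted p = 0.00112). ISG15 itself stood at 36.5 and 30.6 CPM in the mutant and 14.5 and 16.2 CPM in the wild type knock-in, with a log2 fold change of 1.13 (SE 0.19, adjusted p = 0.00567). USP18 stood at 24.7 and 23.7 CPM in the mutant and 12.9 and 11.7 CPM in the wild type knock-in, a log2 fold change of 0.98 (SE 0.15, adjusted p = 0.00341). The ligase genes thus had larger fold changes than ISG15 or USP18. Without wild type sample 2 neither ISG15 (adjusted p = 0.0627) nor USP18 (adjusted p = 0.0603) passed. UBE2L6 stood at 42.6 and 38.95 CPM in the mutant and 34.7 and 32.97 CPM in the wild type knock-in, with a log2 fold change of 0.27 (SE 0.09, adjusted p = 0.0758).

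RSAD2 (viperin) converts a nucleotide into a chain terminator of viral RNA, and CMPK2, a nucleotide kinase, lies beside it on the opposite strand. RSAD2 had 16.5 and 14.9 CPM in the mutant knock-in, 4.76 and 2.14 CPM in the wild type knock-in, 0.404 and 1.46 CPM in the METTL3 knockout, 0.329 and 0.411 CPM in the senescent control and 0.0438 and 0.0448 CPM in the control. CMPK2 had 13.1 and 11.8 CPM in the mutant knock-in, 3.78 and 2.098 CPM in the wild type knock-in, 0.7504 and 1.46 CPM in the METTL3 knockout, 0.548 and 0.776 CPM in the senescent control and 0.131 and 0.179 CPM in the control. Both genes were at 1.46 CPM or less outside the knock-ins and both were higher in the mutant than in the wild type knock-in. The log2 fold changes were 2.22 (SE 0.35, adjusted p = 0.00501) for RSAD2 and 2.11 (SE 0.27, adjusted p = 0.00132) for CMPK2. RSAD2 did not pass without wild type sample 2 (adjusted p = 0.0504) or mutant sample 2 (adjusted p = 0.0558). The 2 genes overlap in the annotation, so reads could be divided between them.

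Among proteins at membranes, BST2 (tetherin) holds new virus particles to the cell surface, IFITM1 blocks fusion of incoming virus and PLSCR1 is a scramblase that also restricts entry. BST2 had 2.56 and 2.91 CPM in the mutant knock-in, 0.854 and 0.793 CPM in the wild type knock-in, 0.231 and 0.417 CPM in the METTL3 knockout, 0.165 and 0.137 CPM in the senescent control and 0.0438 and 0 CPM in the control. It was higher in the mutant knock-in with a log2 fold change of 1.73 (SE 0.35, adjusted p = 0.0107). That call was lost without wild type sample 2 (adjusted p = 0.113), mutant sample 1 (adjusted p = 0.0553) or mutant sample 2 (adjusted p = 0.125), and DESeq2 gave it no adjusted p. PLSCR1 stood at 105 and 101 CPM in the mutant and 46.4 and 34.7 CPM in the wild type knock-in, a log2 fold change of 1.35 (SE 0.15, adjusted p = 0.00109). IFITM1 stood at 40.9 and 34.01 CPM in the mutant and 18.98 and 18.1 CPM in the wild type knock-in, a log2 fold change of 1.02 (SE 0.15, adjusted p = 0.00259), with an adjusted p of 0.0537 without wild type sample 2. IFITM1 has near copies, IFITM2 and IFITM3, that may share its reads. LGALS3BP, a secreted glycoprotein, overlapped between the 2 groups, at 109 and 95.6 CPM in the mutant and 96.9 and 94.7 CPM in the wild type knock-in, with a log2 fold change of 0.10 (SE 0.11, adjusted p = 0.606). RTP4, a chaperone of membrane receptors, had 6 and 7 counts in the mutant knock-in, 5 and 1 counts in the wild type knock-in, 1 and 1 counts in the METTL3 knockout, 0 and 0 counts in the senescent control and 1 and 2 counts in the control, and was not tested.

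PARP9 and DTX3L form a complex that joins ADP-ribose to ubiquitin, and PARP14 is a related ADP-ribosyltransferase. All 3 genes were higher in the mutant knock-in. PARP14 had 259.6 and 246 CPM in the mutant knock-in, 153 and 122 CPM in the wild type knock-in, 51.8 and 66.2 CPM in the METTL3 knockout, 42.4 and 45.3 CPM in the senescent control and 35.8 and 53.4 CPM in the control. Its log2 fold change was 0.88 (SE 0.18, adjusted p = 0.0141), and it did not pass without wild type sample 2 (adjusted p = 0.142), mutant sample 1 (adjusted p = 0.0754) or mutant sample 2 (adjusted p = 0.0997). PARP9 stood at 127 and 116 CPM in the mutant against 62.5 and 48.9 CPM in the wild type knock-in, and its log2 fold change was 1.13 (SE 0.17, adjusted p = 0.00401), with an adjusted p of 0.0619 without wild type sample 2. DTX3L stood at 214 and 191 CPM in the mutant against 100.2 and 90.1 CPM in the wild type knock-in, and its log2 fold change was 1.09 (SE 0.11, adjusted p = 0.000362). PARP9 and DTX3L lie head to head on opposite strands and overlap in the annotation.

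SAMD9 and its neighbour SAMD9L restrict poxviruses and stop translation, and DDX60 and DDX60L are helicases linked to RNA sensing. SAMD9 had 410.4 and 415 CPM in the mutant knock-in, 276 and 229.9 CPM in the wild type knock-in, 111 and 127 CPM in the METTL3 knockout, 79.5 and 85.7 CPM in the senescent control and 46.6 and 60.2 CPM in the control. It was higher in the mutant than in the wild type knock-in by 0.71 (SE 0.13, adjusted p = 0.00654) on the log2 scale, but not without wild type sample 2 (adjusted p = 0.105) or mutant sample 2 (adjusted p = 0.0968). SAMD9L, at 192 and 184 CPM in the mutant and 168 and 144 CPM in the wild type knock-in, did not pass, with a log2 fold change of 0.27 (SE 0.15, adjusted p = 0.246). DDX60 stood at 74.02 and 74.04 CPM in the mutant and 37.8 and 30.1 CPM in the wild type knock-in and was higher by 1.13 (SE 0.16, adjusted p = 0.00252). For DDX60L the values were 139 and 133 CPM in the mutant and 65.3 and 49.6 CPM in the wild type knock-in, and it was higher by 1.25 (SE 0.20, adjusted p = 0.00634). Both helicase calls were lost without wild type sample 2, with adjusted p = 0.0578 for DDX60 and 0.0907 for DDX60L. They were also lost without mutant sample 2, with adjusted p = 0.0529 for DDX60 and 0.0663 for DDX60L.

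TRIM22, a nuclear ubiquitin ligase that represses viral transcription, had 90.7 and 73.98 CPM in the mutant knock-in, 57.7 and 52.2 CPM in the wild type knock-in, 72.3 and 75.3 CPM in the METTL3 knockout, 45.2 and 41.96 CPM in the senescent control and 53.9 and 57.7 CPM in the control. Its level in the METTL3 knockout was between those of the knock-ins, and mutant sample 2 lay below knockout sample 2. The log2 fold change of TRIM22 between mutant and wild type knock-in was 0.58 (SE 0.11, adjusted p = 0.00685), and it was not called without wild type sample 2 (adjusted p = 0.104) or mutant sample 1 (adjusted p = 0.0692). SP110, a nuclear body protein, stood at 71.99 and 77.2 CPM in the mutant and 48.9 and 44.8 CPM in the wild type knock-in and was higher by 0.67 (SE 0.09, adjusted p = 0.00202). ISG20, an exonuclease that degrades single-stranded RNA, did not pass, at 2.98 and 3.61 CPM in the mutant and 2.196 and 1.03 CPM in the wild type knock-in, with a log2 fold change of 1.07 (SE 0.35, adjusted p = 0.0653). Wild type sample 1 of ISG20 lay closer to mutant sample 1 than to wild type sample 2.

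IFI44L and IFI44 are neighbouring genes whose proteins bind GTP or limit interferon signalling, EPSTI1 is an interferon-induced protein first described in epithelial and stromal cells, and XAF1 promotes cell death. IFI44L had 126 and 116 CPM in the mutant knock-in, 26.3 and 16.4 CPM in the wild type knock-in, 10.2 and 14.9 CPM in the METTL3 knockout, 2.03 and 2.100 CPM in the senescent control and 0.525 and 0.896 CPM in the control. Its log2 fold change between mutant and wild type knock-in was 2.51 (SE 0.21, adjusted p = 0.00032). IFI44 stood at 43.6 and 41.2 CPM in the mutant and 18.98 and 13.01 CPM in the wild type knock-in, with a log2 fold change of 1.42 (SE 0.19, adjusted p = 0.00229). Thus both neighbours were higher in the mutant, and IFI44L had the larger fold change. EPSTI1 had 24.99 and 26.8 CPM in the mutant knock-in, 7.26 and 6.202 CPM in the wild type knock-in, 3.81 and 4.85 CPM in the METTL3 knockout, 1.92 and 1.598 CPM in the senescent control and 1.36 and 1.52 CPM in the control. The change of EPSTI1 was 1.95 (SE 0.15, adjusted p = 6.54e-05) on the log2 scale, the smallest adjusted p among members together with MX2. XAF1 had 23.02 and 19.4 CPM in the mutant knock-in, 8.603 and 5.04 CPM in the wild type knock-in, 2.48 and 2.66 CPM in the METTL3 knockout, 1.48 and 1.55 CPM in the senescent control and 0.657 and 0.717 CPM in the control. It was higher by 1.66 (SE 0.20, adjusted p = 0.00111). For EPSTI1 and XAF1 every mutant sample lay above every wild type sample, with little spread within the mutant group.

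IFI6 and IFI27 are small membrane proteins of the endoplasmic reticulum and mitochondria, IFI35 is a leucine zipper protein, and GBP1 is a GTPase that answers mainly to interferon gamma. IFI6 stood at 67.3 and 61.6 CPM in the mutant and 39.4 and 44.5 CPM in the wild type knock-in, with a log2 fold change of 0.62 (SE 0.14, adjusted p = 0.0149). Its call was lost without either sample of either knock-in, with an adjusted p of 0.0968 without wild type sample 1, 0.0871 without wild type sample 2, 0.105 without mutant sample 1 and 0.0997 without mutant sample 2. IFI27 stood at 7.34 and 6.52 CPM in the mutant and 4.03 and 3.404 CPM in the wild type knock-in, with a log2 fold change of 0.91 (SE 0.23, adjusted p = 0.0247), and it too was lost without any of these libraries (adjusted p = 0.0583, 0.183, 0.149 and 0.138 in the same order) and with DESeq2 (adjusted p = 0.112). No other member lost its call without each of these 4 libraries. IFI35, at 10.5 and 7.22 CPM in the mutant and 6.16 and 5.502 CPM in the wild type knock-in, did not pass, with a log2 fold change of 0.61 (SE 0.21, adjusted p = 0.0811). GBP1 did not pass either, at 50.8 and 50.8 CPM in the mutant and 41.6 and 39.2 CPM in the wild type knock-in, with 0.33 (SE 0.11, adjusted p = 0.0753).

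**Figure D3:**
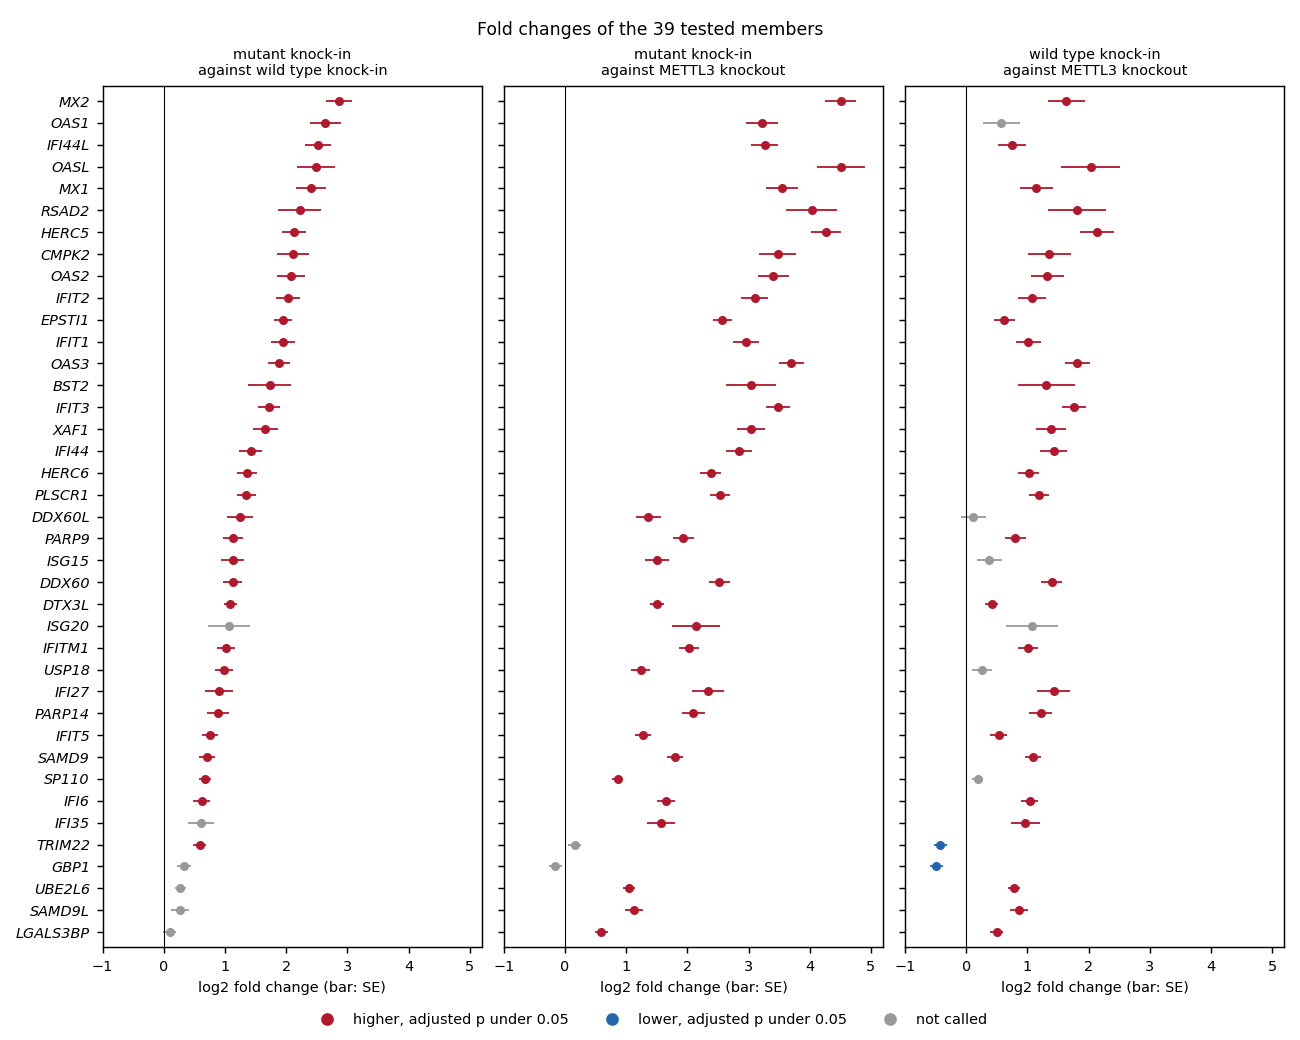
Log2 fold change of each tested member in 3 comparisons, mutant against wild type knock-in, mutant knock-in against METTL3 knockout and wild type knock-in against METTL3 knockout. Bars are standard errors, colours give the call at an adjusted p under 0.05, and genes are sorted by the first comparison. In that comparison the points run from 0.10 for LGALS3BP to 2.87 for MX2.

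Sequences upstream of the start sites were read to show the element that the complex with STAT2 and IRF9 binds. The RefSeq promoter table of build GRCh38.p14, which holds 250 bases before to 50 bases after each gene start, had 34 of the 40 members. The core of an ISRE, GAAA then any 2 bases then GAAA, was searched on both strands, where overlapping matches can run together. The motif was present in 26 of the 34 members (76.5%), against 4.38% of all 27305 symbols in the table. The members were listed as interferon-induced genes, so a high share comes with the choice of the list. Of the 27 matched members that were higher in the mutant than in the wild type knock-in, 22 held it. Of the 7 others 4 held it, among them RTP4, which was not tested. The longer form, with CT directly after the core, was present in 17 of 34 members (50%), against 0.322% of all symbols. OAS1, XAF1, HERC6, CMPK2, SP110, UBE2L6, SAMD9L and IFI35 had no core match in this window. The stretches below are given 5′ to 3′ on the strand of the gene, with 15 bases on each side and the core match in capitals, and are credited to RefSeq. They show a single match, repeated or merged matches, and 2 members that were not called.
ISG15: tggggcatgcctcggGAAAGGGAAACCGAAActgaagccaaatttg
IFI44L: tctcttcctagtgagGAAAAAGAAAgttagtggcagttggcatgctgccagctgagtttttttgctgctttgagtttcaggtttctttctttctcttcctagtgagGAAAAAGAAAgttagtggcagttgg
IFIT1: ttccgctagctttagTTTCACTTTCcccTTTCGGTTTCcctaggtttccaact
HERC5: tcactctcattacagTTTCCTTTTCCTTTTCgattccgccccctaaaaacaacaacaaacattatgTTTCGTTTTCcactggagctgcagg
DDX60: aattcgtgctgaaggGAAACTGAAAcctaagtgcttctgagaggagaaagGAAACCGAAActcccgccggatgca
BST2: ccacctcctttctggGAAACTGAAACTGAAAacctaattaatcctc
PARP14: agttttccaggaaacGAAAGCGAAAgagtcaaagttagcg
GBP1: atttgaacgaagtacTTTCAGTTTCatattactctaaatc
LGALS3BP: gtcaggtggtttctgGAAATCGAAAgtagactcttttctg

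The ISG15 stretch (chr1:1013369-1013414, plus strand) and the BST2 stretch (chr19:17405730-17405775, minus strand) each hold 2 core matches that overlap. IFI44L (chr1:78620269-78620399, plus strand) holds the same 10-letter match at each end of the stretch. In IFIT1 (chr10:89392492-89392544, plus strand) and HERC5 (chr4:88456979-88457069, plus strand) the match reads on the opposite strand, as TTTC pairs, and HERC5 holds 3. DDX60 (chr4:168318781-168318855, minus strand) holds 2 separate matches, and PARP14 (chr3:122680795-122680834, plus strand) holds 1 close to the start. Both GBP1 (chr1:89065311-89065350, minus strand) and LGALS3BP (chr17:78979957-78979996, minus strand) hold 1, although neither passed the test between mutant and wild type knock-in. A match is a description of the letters and does not show that a factor binds there.

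**Figure D4:**
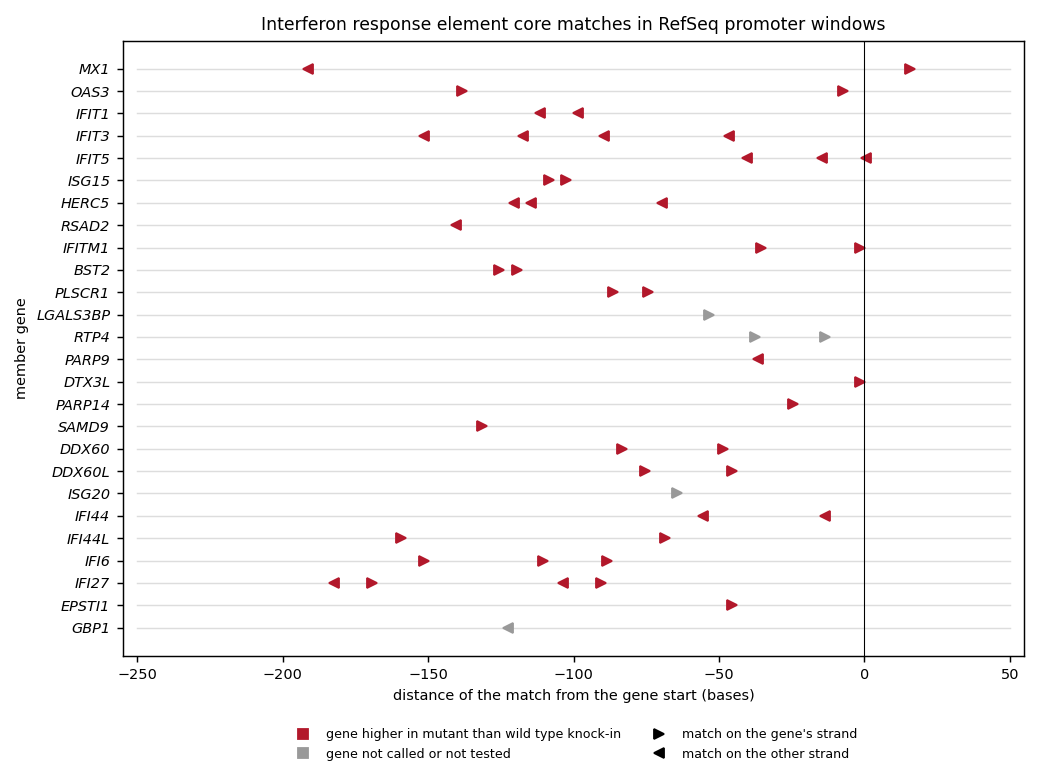
Position of the core motif in the promoter windows of the 26 members that hold it, as distance in bases from the gene start, with a row per gene, arrows for the strand of the match and colours for the call; a gene with several annotated starts has all of its windows on 1 row. Most matches lie upstream of the start, and members that were not called or not tested also hold matches.

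Against the METTL3 knockout, the mutant knock-in had nearly all members higher. Of 39 tested, 37 were higher and 0 lower (edgeR quasi-likelihood test), beside 24.1% of all genes higher and 24.3% lower. DESeq2 gave the same counts, beside 15.5% of all genes higher. At an unadjusted p under 0.05 in edgeR the counts were also 37 and 0, and the share of all genes was not counted. The median log2 fold change was 2.38 over the members. The 6 largest were OASL at 4.51 (SE 0.39, adjusted p = 3.12e-06), MX2 at 4.51 (SE 0.25, adjusted p = 1.51e-07), HERC5 at 4.26 (SE 0.25, adjusted p = 1.76e-07), RSAD2 at 4.03 (SE 0.42, adjusted p = 3.06e-05), OAS3 at 3.70 (SE 0.21, adjusted p = 6.55e-07) and MX1 at 3.55 (SE 0.26, adjusted p = 4.13e-06) on the log2 scale. The knockout levels were low in several of them, with 3 and 7 counts of OASL and 12 and 20 counts of MX2 in the knockout samples. TRIM22 and GBP1 did not pass, with log2 fold changes of 0.16 (SE 0.11, adjusted p = 0.241) for TRIM22 and -0.16 (SE 0.11, adjusted p = 0.268) for GBP1. The 37 calls held in each of the 17 alternative fits. In the same comparison 7 of 8 fibroblast markers were lower, and PTPRC was higher at 2.92 and 5.89 CPM in the mutant knock-in and 0.115 and 0.313 CPM in the METTL3 knockout, with a log2 fold change of 4.29 (SE 0.52, adjusted p = 6.34e-05). LYZ, the only other leukocyte marker tested, was not called, with a log2 fold change of 0.60. The part of these markers in the result was not tested. RTP4 had 13 counts in the mutant knock-in and 2 in the METTL3 knockout over both samples, a ratio of 7.29 with an exact 95% interval of 1.65 to 66.5 for counting error only.

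The wild type knock-in also had most members higher than the METTL3 knockout. Of 39 tested, 31 were higher and 2 lower, beside 18.5% of all genes higher and 14.8% lower, and the median log2 fold change over the members was 1.03. The largest were HERC5 at 2.14 (SE 0.28, adjusted p = 0.000114), OASL at 2.03 (SE 0.48, adjusted p = 0.006), OAS3 at 1.82 (SE 0.20, adjusted p = 9.46e-05), RSAD2 at 1.81 (SE 0.47, adjusted p = 0.0139), IFIT3 at 1.77 (SE 0.20, adjusted p = 8.53e-05) and MX2 at 1.64 (SE 0.31, adjusted p = 0.00146) on the log2 scale. OAS3, for example, averaged 51.4 ± 9.42 CPM in the wild type knock-in and 14.5 ± 4.11 CPM in the METTL3 knockout (SD, n = 2 each). Without knockout sample 1, OASL had an adjusted p of 0.0672 and RSAD2 of 0.0873, and without wild type sample 1 RSAD2 had 0.107. The 2 lower members were GBP1, with -0.49 (SE 0.11, adjusted p = 0.00547), and TRIM22, with -0.43 (SE 0.11, adjusted p = 0.00893). GBP1 stood at 41.6 and 39.2 CPM in the wild type knock-in and 53.97 and 59.2 CPM in the knockout. Without knockout sample 2 neither was called, with adjusted p = 0.0559 for GBP1 and 0.0582 for TRIM22, and TRIM22 was not called without wild type sample 2 (adjusted p = 0.0622). OAS1, ISG15, USP18, DDX60L, SP110 and ISG20 did not pass. OAS1, for example, stood at 2.07 and 2.14 CPM in the wild type knock-in and 0.866 and 1.93 CPM in the knockout, with a log2 fold change of 0.57 (SE 0.31, adjusted p = 0.178). The median log2 fold change over the members was 0.80 without knockout sample 1 and 1.25 without knockout sample 2. It was 0.90 without wild type sample 1 and 1.15 without wild type sample 2. Of the 8 fibroblast markers 5 were lower, and PTPRC was higher at 1.46 and 0.933 CPM in the wild type knock-in and 0.115 and 0.313 CPM in the METTL3 knockout, with a log2 fold change of 2.40 (SE 0.61, adjusted p = 0.0111). LYZ was not called here either, with a log2 fold change of 0.44. The part of the fibroblast and leukocyte markers was not tested. Both this comparison and that of the mutant use the same knockout samples.

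The METTL3 knockout had many members higher than the senescent control and none lower. Against the senescent control, 21 of 39 were higher and 0 lower in the METTL3 knockout (edgeR quasi-likelihood test), beside 7.17% of all genes higher and 8.62% lower. DESeq2 gave 21 and 0, beside 5.81% of all genes higher. At an unadjusted p under 0.05 in edgeR the counts were 28 and 1, and the share of all genes was not counted. The median log2 fold change over the members was 0.75. The largest were IFI44L at 2.61 (SE 0.30, adjusted p = 0.000261), OAS1 at 2.00 (SE 0.42, adjusted p = 0.00662), OAS2 at 1.94 (SE 0.37, adjusted p = 0.00519), IFI44 at 1.80 (SE 0.29, adjusted p = 0.00164), IFIT1 at 1.63 (SE 0.24, adjusted p = 0.00131) and IFI27 at 1.60 (SE 0.37, adjusted p = 0.0112) on the log2 scale. IFI44L averaged 12.6 ± 3.32 CPM in the knockout and 2.06 ± 0.0504 CPM in the senescent control (SD, n = 2 each). Several of the 6 were not called when 1 library was left out. OAS1 had adjusted p = 0.126 without knockout sample 2, 0.0586 without senescent control sample 1 and 0.0521 without senescent control sample 2. OAS2 had adjusted p = 0.0602 and 0.0604 with control samples 1 and 2 left out in turn. IFI27 had 0.115 without knockout sample 2 and 0.108 without sample 1 of the senescent control. GBP1, at 53.97 and 59.2 CPM in the knockout and 24.8 and 25.4 CPM in the senescent control, was higher by 1.17 (SE 0.11, adjusted p = 3.34e-05) and held in every alternative fit. OASL ran the other way without passing, at 0.173 and 0.365 CPM in the knockout and 0.658 and 0.639 CPM in the senescent control, with a log2 fold change of -1.23 (SE 0.52, adjusted p = 0.14). Of the 8 fibroblast markers 3 were higher and 0 lower, and neither tested leukocyte marker was called. The median log2 fold change over the members was 0.98 without knockout sample 1 and 0.43 without knockout sample 2. It was 0.73 without senescent control sample 1 and 0.80 without senescent control sample 2.

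The senescent control differed from the control in both directions, with fewer members higher than in the comparisons above. In the senescent control against the control, 14 members were higher and 9 lower of 39 tested, beside 19.7% of all genes higher and 25.3% lower, and 16 passed in neither direction. The share of members called lower was no larger than that of all genes. The median log2 fold change over the members was 0.40. Beside these, 7 of 8 fibroblast markers were lower, and both tested leukocyte markers were higher. PTPRC had 9 and 12 counts in the senescent control and 0 counts in the control, and LYZ stood at 2.69 and 2.33 CPM in the senescent control and 0.832 and 1.21 CPM in the control. The part of these markers was not tested. The 6 largest rises were OAS1 at 2.28 (SE 0.76, adjusted p = 0.0281), OASL at 2.23 (SE 0.57, adjusted p = 0.0072), CMPK2 at 2.07 (SE 0.62, adjusted p = 0.0175), OAS2 at 2.04 (SE 0.60, adjusted p = 0.0194), SAMD9L at 1.70 (SE 0.16, adjusted p = 6.66e-06) and IFI6 at 1.63 (SE 0.19, adjusted p = 2.77e-05) on the log2 scale. SAMD9L was also abundant, at 69.7 and 79.3 CPM in the senescent control against 19.1 and 26.7 CPM in the control. OAS1 rested on few counts, 14 in the senescent control and 3 in the control, a ratio of 5.25 with an exact 95% interval of 1.47 to 28.5. RSAD2 did not pass, with 15 counts in the senescent control and 2 in the control, a ratio of 8.44 with an interval of 1.96 to 76.1. The 6 largest falls were IFI35 at -1.14 (SE 0.29, adjusted p = 0.00668), GBP1 at -0.81 (SE 0.11, adjusted p = 0.00013), PARP9 at -0.67 (SE 0.19, adjusted p = 0.0155), OAS3 at -0.66 (SE 0.24, adjusted p = 0.0432), IFITM1 at -0.62 (SE 0.18, adjusted p = 0.0144) and DTX3L at -0.58 (SE 0.11, adjusted p = 0.00128). GBP1 stood at 24.8 and 25.4 CPM in the senescent control and 38.8 and 49.4 CPM in the control. Within the OAS family OAS1, OAS2 and OASL were called higher and OAS3 lower, but the call of OAS3 was lost in 9 of the 17 alternative fits. Its adjusted p was 0.06 with upper-quartile scaling, 0.0563 with the replicate block and 0.0604 with only the 2 groups fitted.

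Many of these calls were also lost when 1 library was left out. Without senescent control sample 2 the calls of OAS1, CMPK2 and OAS2 were among those lost. The median log2 fold change over the members was 0.62 without senescent control sample 1 and 0.45 without senescent control sample 2. It was 0.28 without control sample 1 and 0.77 without control sample 2. OAS1 was also lost without control sample 2 (adjusted p = 0.0691) and senescent control sample 1 (adjusted p = 0.0717). OAS2 was lost without control sample 1 (adjusted p = 0.26) and control sample 2 (adjusted p = 0.2). Calls of lower members were lost as well, while none of these members changed sign. IFI35 had adjusted p = 0.0746 without senescent control sample 1. OAS3 had 0.447 and 0.0696 without control samples 1 and 2, and 0.17 and 0.118 without senescent control samples 1 and 2. PARP9 had 0.157 and 0.208 without control samples 1 and 2, and 0.128 without senescent control sample 1. For IFITM1 leaving out control sample 1 gave 0.134, and leaving out sample 2 of the senescent control gave 0.136. OASL, SAMD9L, IFI6, GBP1 and DTX3L held in every alternative fit. The MX and IFIT genes did not pass in either direction.

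Interferon pathway genes outside the 40 were read from a list of 58 genes found in the table, of which 50 were tested. In the mutant against the wild type knock-in 21 were higher and 3 lower, beside 5.16% of all genes higher and 7.39% lower, so that the share called lower was no larger than that of all genes. The largest changes were in IFIH1, which senses long double-stranded RNA, at 1.76 (SE 0.14, adjusted p = 0.000104), the chemokine CXCL11 at 1.62 (SE 0.32, adjusted p = 0.0104) and IRF7, which amplifies interferon transcription, at 1.52 (SE 0.24, adjusted p = 0.00465) on the log2 scale. Next came HELZ2 at 1.49, CXCL10 at 1.35, PARP12 at 1.33, RIGI at 1.24, PARP10 at 1.24, GBP5 at 1.22 and GBP2 at 0.91, all higher. STAT2 and IRF9 were also higher, by less than most members. STAT2 stood at 261 and 239 CPM in the mutant and 179.6 and 163 CPM in the wild type knock-in, with a log2 fold change of 0.55 (SE 0.10, adjusted p = 0.00656). IRF9 stood at 59.05 and 60.9 CPM in the mutant and 35.4 and 34.5 CPM in the wild type knock-in, with a log2 fold change of 0.78 (SE 0.13, adjusted p = 0.00539). The 3 called lower were the receptor chain IFNAR1 at -0.33 (SE 0.10, adjusted p = 0.0474), the factor IRF3 at -0.45 (SE 0.12, adjusted p = 0.0292) and the adaptor MAVS at -0.46 (SE 0.11, adjusted p = 0.0218). IFNB1, the gene of interferon beta, had 5 counts over the mutant samples and 2 over the wild type samples, a ratio of 2.91 with an exact 95% interval of 0.476 to 30.5, and 0 counts in the other 6 samples.

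Of these, IFIH1, HELZ2 and PARP12 held in every alternative fit. Without wild type sample 2 the calls of IRF7, STAT2, IRF9, RIGI, CXCL10, CXCL11, PARP10, GBP5 and GBP2 were lost, as were those of IFNAR1, IRF3 and MAVS. The largest adjusted p over the alternative fits was 0.0729 for IRF7, 0.0908 for STAT2, 0.0771 for IRF9, 0.0573 for RIGI and 0.284 for IFNAR1. IFNAR1 was lost in 11 of the 17 fits, among them both other scalings and the fit with METTL3 left out. IRF3 was lost in 7, among them upper-quartile scaling and DESeq2, and MAVS in 4, those without a sample of either knock-in. In the other comparisons of the same list, 29 were higher and 4 lower in the mutant knock-in against the METTL3 knockout, beside 24.1% and 24.3% of all genes. The wild type knock-in had 22 higher and 4 lower than the METTL3 knockout, beside 18.5% and 14.8% of all genes. In the METTL3 knockout against the senescent control 5 were higher and 5 lower, beside 7.17% and 8.62% of all genes, which is near the background. The senescent control had 15 higher and 11 lower than the control, beside 19.7% and 25.3% of all genes.

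**Figure D5:**
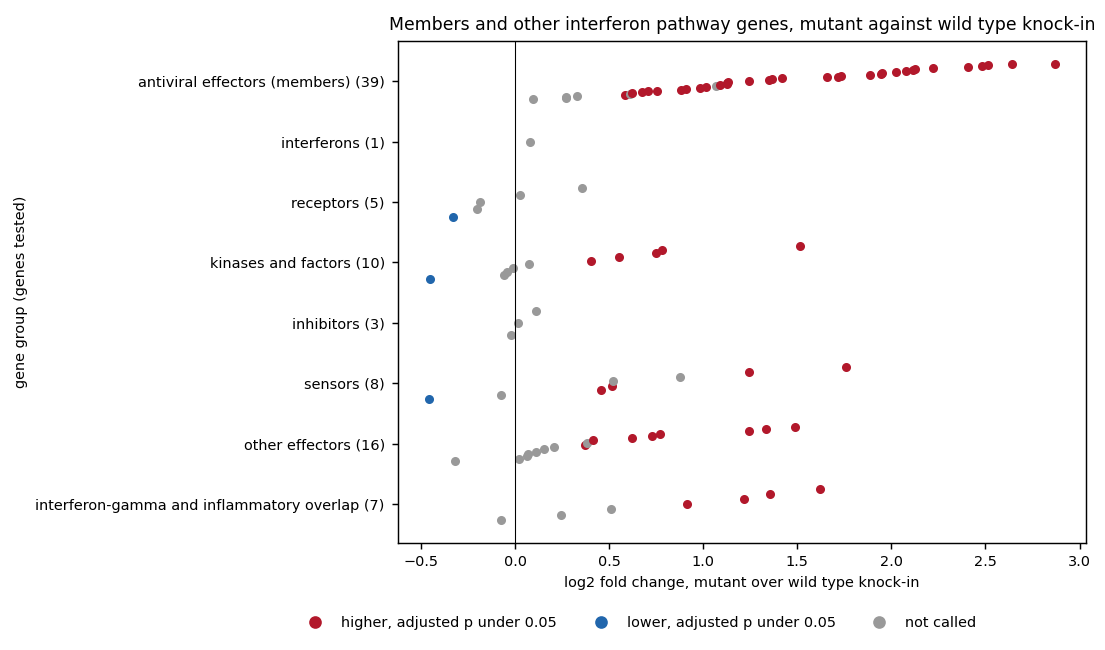
Log2 fold change in mutant against wild type knock-in of the 39 tested members and of 50 other interferon pathway genes by role, 1 point per gene, coloured by call. Most members lie above 0.5, while the receptors lie around 0 and only IRF7 among the kinases and factors exceeds 1.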

How the data were processed

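DNase-treated RNA went into KAPA HyperPrep libraries, per the labels' protocols. Bowtie2 and RSEM 1.2.12 were used with build hg19, per the submitters' processing notes. The authors deposited whole-number counts per Ensembl gene, not normalized. Annotation, strand setting and handling of multiply mapped reads are not stated in the notes used here.

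The tool was edgeR 4.0.16 under R 4.3.3. Its filterByExpr at a minimum count of 10 left 16760 of 57736 genes, and TMM scaled the libraries. One linear model held a term for each group over the 10 samples and had 5 residual degrees of freedom. Tests were quasi-likelihood F tests (robust, two-sided), with Benjamini-Hochberg adjustment over all genes of a comparison. The words higher and lower mean an adjusted p under 0.05. The standard error (SE) of a log2 fold change was computed from its F statistic, which shares a dispersion over all samples. CPM used the TMM-scaled totals. Intervals of count ratios are exact and cover counting error only. Alternatives were DESeq2 1.42.0, 2 other scalings, no filter, METTL3 left out, only the compared groups, a replicate block and each library left out.

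Symbols came from the symbol table of the reference, and promoters from RefSeq, GRCh38.p14. That build is not that of the counts, and no coordinate was carried between them. The members, the pathway and marker lists and the rule for named genes were chosen with earlier results of these data known. Values were given in full for the 16 called members with the largest change between mutant and wild type knock-in, and for the most abundant member of each role without one. In the other comparisons up to 6 rises and 6 falls were named. In the pathway list the 10 largest calls were named, with STAT2, IRF9 and IFNB1, and some listed genes are not reported here. IFNAR1, IRF3, MAVS, the examples and the members that did not pass were named after their values were seen.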

Additional observations from a re-analysis of the deposited data

How the results depend on the processing

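The call of 33 members higher in mutant against wild type knock-in kept its direction for all 33 in each of the 17 alternative fits, and 18 of the 33 passed in all of them. All 37 calls against the METTL3 knockout passed in all of them. The numbers that passed in all fits were 16 of 33 for wild type knock-in against METTL3 knockout, 10 of 21 for METTL3 knockout against senescent control and 8 of 23 for senescent control against control. No call of a member changed sign. The cause of the lost calls was not tested.

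All 10 samples share a dispersion, so a library can move comparisons that do not include it. The 2 control samples were the least alike of all replicates. Their chi-square value per gene was 34.1, against 5.08 to 7.56 in the other groups. This value takes in METTL3, which had very high counts in the knock-ins and differed between the mutant samples. It therefore does not rank the other groups. In mutant against wild type knock-in, the most members and genes were called higher with a control sample left out. Whether the spread between control samples set the calls was not tested. With 1 library left out in turn, the counts moved as follows. The ends of a range of members and of a range of all genes need not come from the same fit. In mutant knock-in against wild type knock-in, 19 to 38 members were higher and 0 lower, with 92 to 2032 of all genes higher and 31 to 2886 lower. In mutant knock-in against METTL3 knockout, 37 members were higher and 0 to 1 lower, with 2634 to 4707 of all genes higher and 3189 to 5196 lower. In wild type knock-in against METTL3 knockout, 20 to 31 members were higher and 0 to 2 lower, with 1768 to 3890 of all genes higher and 1515 to 3776 lower. In METTL3 knockout against senescent control, 11 to 23 members were higher and 0 lower, with 501 to 2136 of all genes higher and 689 to 2683 lower. In senescent control against control, 6 to 17 members were higher and 4 to 9 lower, with 2372 to 4467 of all genes higher and 2700 to 4507 lower. In mutant knock-in against METTL3 knockout the 1 lower member appeared when either control sample was left out.

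In mutant against wild type knock-in, upper-quartile scaling gave 773 genes lower over all genes, no low-count filter 1887 lower, DESeq2 516 higher, and fitting only the 2 groups 1884 higher and 2194 lower. Fitting only 2 groups gave 2526 higher and 3095 lower in METTL3 knockout against senescent control, and 2716 lower in senescent control against control, where 5 members were lower. No pairing by sample number was seen over all tested genes: correlations of same-numbered deviations ran from -0.15 to 0.09, none over 0.1. Such correlations cannot exclude a pairing that is weak or limited to some genes. With a replicate block, members higher and lower were 33 and 0 in mutant against wild type knock-in, 37 and 0 in mutant knock-in against METTL3 knockout, 30 and 2 in wild type knock-in against METTL3 knockout, 20 and 0 in METTL3 knockout against senescent control, and 13 and 8 in senescent control against control. In that fit 4.65%, 23.7%, 18%, 6.83% and 19.7% of all genes were higher, in the same order of comparisons. Depth limited OAS1, OASL, RSAD2, BST2 and RTP4, which had few counts in the groups without a transgene.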

Other observations

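In 2 of the 5 groups nearly all members were higher in the same sample. In the wild type knock-in 37 of 40 members were higher in sample 1 than in sample 2, against 49.7% of all tested genes, with a median log2 difference of 0.27 over the members. In the METTL3 knockout 4 of 40 were higher in sample 1, against 46.0% of all tested genes, with a median log2 difference of -0.34. The count was 29 of 40 in the mutant knock-in, against 50.1% of all tested genes. It was 11 in the senescent control, against 46.2%, and 17 in the control, against 54.5%. These medians use CPM plus 0.5 and are descriptions of single libraries, with no test.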
